A study of Homo sapiens with 14 samples.

Results

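A set of 10 genes of transforming growth factor beta (TGF-beta) and bone morphogenetic protein (BMP) signalling was followed by RNA sequencing in SK-N-BE2, an established human neuroblastoma cell line with amplified MYCN. They were the 3 ligand genes TGFB1, TGFB2 and TGFB3, the receptor genes TGFBR1 and TGFBR2, SMAD3 and SMAD7, and ID1, ID2 and ID3. They were chosen by name, as 10 of the 19923 gene rows of the count tables, and all 10 passed the low-count filter in both batches. The series asks how 5-hydroxymethylcytosine in DNA relates to Polycomb Repressive Complex 2. TET2 is one of the enzymes that make this base by oxidising 5-methylcytosine.

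The 14 libraries formed 7 groups of 2 replicates in 2 labelled batches. In batch 1 all cells carried the genotype label WT and received H2O, 10 µM CoCl2 or 50 µM CoCl2, with no exposure time in the labels. Cobalt chloride is a salt widely used to stabilise hypoxia-inducible factors. In batch 2 all cells were untreated, and they were labelled WT or TET2KO #1, #2 or #3. How each knockout was made, whether its number stands for a clone, and whether replicates came from separate cultures are not in the labels, so p-values measure the spread between these libraries, which may be technical. All comparisons were made within a batch. The 2 CoCl2 groups share their H2O libraries and the 3 knockout groups share their WT libraries, so results within each set are not independent.

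TGF-beta ligands are secreted in a latent form and, once released, bind TGFBR2, which recruits and phosphorylates TGFBR1. The activated receptor phosphorylates SMAD2 and SMAD3, which enter the nucleus with SMAD4, while SMAD7 is an induced inhibitor that acts back on the receptor. BMP ligands signal in parallel through SMAD1, SMAD5 and SMAD9. The ID genes are classic BMP targets: their proteins lack a DNA-binding region and hold E proteins, a class of basic helix-loop-helix (bHLH) factors, away from DNA, and in neural crest derived cells such as neuroblastoma they are known for opposing differentiation.

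Library totals were 31214128 to 39540111 counts in batch 1 and 52095024 to 59263320 in batch 2, where the counter counted reads rather than fragments. Replicates of batch 1 differed by little more than counting noise (chi-square per gene 1.23 to 1.46, against 1 for counting alone). In batch 2 the spread was wider, at 3.86 to 5.52 per gene, or 1.95 to 2.83 with the counts halved. Of 12 adrenergic neuroblastoma markers 11 passed the filter in each batch, with PHOX2A at 341 CPM (counts scaled to a common library total) in H2O and 390 CPM in WT. In the libraries labelled TET2 knockout, TET2 mRNA was not lower than in WT: its mean was 67.8 CPM in WT, 78.5 in TET2KO #1, 89.2 in TET2KO #2 and 71.8 in TET2KO #3. Counts summed over all exons of a gene cannot show a deleted or edited exon, so the knockout label was not checked at the level of DNA or protein. Every direction below is that of libraries labelled TET2 knockout.

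Across genes, levels were compared as CPM per kilobase of exon. In H2O the order from the highest was ID3 (26.2 CPM per kilobase), ID2 (18.0), ID1 (9.25), TGFBR1 (7.81), SMAD3 (4.28), TGFB1 (2.70), SMAD7 (1.47), TGFBR2 (0.428), TGFB3 (0.165) and TGFB2 (0.132), and each neighbour stood apart by more than the summed SDs. In WT of batch 2 the order was the same down to SMAD7, from 91.4 CPM per kilobase for ID3 to 1.70 for SMAD7. Below it came TGFB2 (1.16 ± 0.107, SD, n = 2), TGFBR2 (0.967 ± 0.0906, SD, n = 2) and TGFB3 (0.488), and TGFB2 and TGFBR2 did not differ beyond their spread. The ID genes and TGFBR1 were thus the most abundant of the 10 in both control groups, while the level of TGFB2 differed widely between them. H2O and WT differ in batch, treatment and counting, which cannot be told apart, so no test was made between them.

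**Figure D1:**
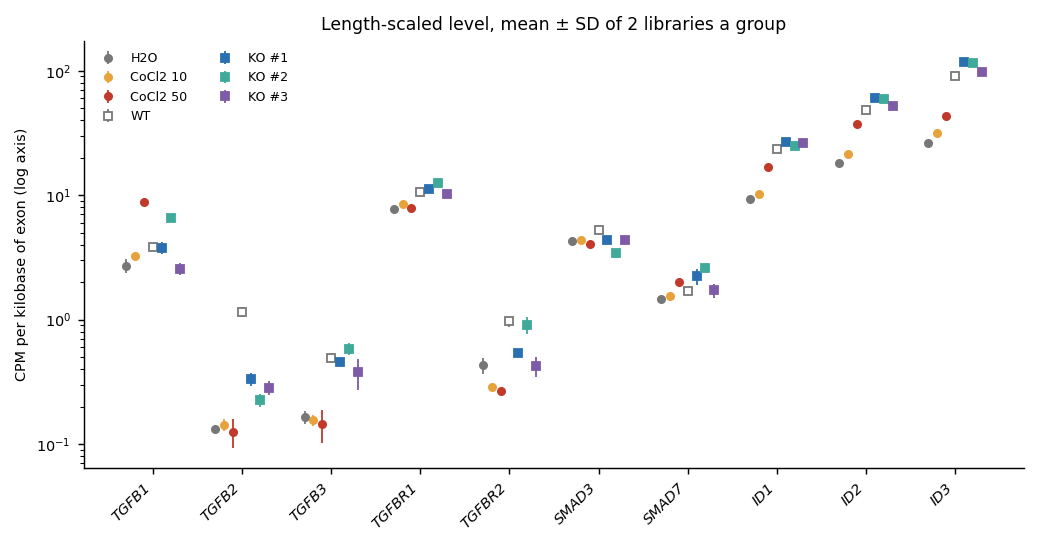
Level of each gene in CPM per kilobase of exon on a log axis, as the mean ± SD of 2 libraries in each of 7 groups (circles, batch 1; squares, batch 2). ID3 was highest in every group, and TGFB2 ranged from 0.125 in 50 µM CoCl2 to 1.16 in WT.

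In cells given CoCl2, TGFB1 and the 3 ID genes were higher and TGFBR2 was lower. At 50 µM, 6 of the 10 genes passed the test, 5 higher (TGFB1, SMAD7, ID1, ID2 and ID3) and 1 lower (TGFBR2), and the largest difference was a 3.27-fold higher TGFB1. The response of the transcriptome at this dose was broad: 61.4% of the 13636 genes tested were called, 30.4% higher and 31.1% lower, so 6 of 10 is close to the background. At 10 µM, 5 of the 10 were called, 4 higher (TGFB1, TGFBR1, ID2 and ID3) and 1 lower (TGFBR2), against 22.7% of all genes (11.6% higher, 11.1% lower). The median log2 fold change of the 10 was 0.11 at 10 µM and 0.22 at 50 µM, beside -0.00065 and 0.0021 over all genes. Calls are at an adjusted p under 0.05 by edgeR's quasi-likelihood test, adjusted over all genes tested by the Benjamini-Hochberg method.

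Among the ligands, TGFB1 responded and the other two did not pass the test. TGFB1, the most widely expressed TGF-beta ligand, was at 9.58 and 7.99 CPM in the H2O libraries, 10.5 and 10.6 CPM at 10 µM and 27.9 and 29.6 CPM at 50 µM. Both 50 µM libraries were far above all others, and the 10 µM libraries lay just above the higher H2O library. The log2 fold change against H2O was 0.27 ± 0.081 (SE) at 10 µM (edgeR adjusted p = 0.0085) and 1.71 ± 0.065 at 50 µM (adjusted p = 3.4e-59). Between the doses it was 1.45 ± 0.063 (adjusted p = 4.4e-51). The 10 µM difference lost its call by DESeq2 (adjusted p = 0.13), without H2O replicate 2 (log2 fold change 0.14, adjusted p = 0.36) and without 10 µM replicate 2 (adjusted p = 0.062). TGFB1 shares 215 of its 3249 exon bases with HNRNPUL1, which lies on the other strand, and the counts were made without regard to strand. HNRNPUL1 had a log2 fold change of -0.021 at 50 µM (edgeR adjusted p = 0.32).

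TGFB2 and TGFB3, ligands with prominent roles in development, were scarce in batch 1. TGFB2 had 30 and 33 counts in H2O, 33 and 31 at 10 µM and 28 and 22 at 50 µM. TGFB3 had 29 and 35 counts in H2O, 25 and 32 at 10 µM and 27 and 20 at 50 µM. The groups overlapped for both genes at both doses. The log2 fold changes at 50 µM were -0.10 ± 0.29 for TGFB2 and -0.21 ± 0.30 for TGFB3, so a change within about 2 SE either way was not detectable at this depth.

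Of the receptors, TGFBR2 was lower at both doses. TGFBR2, the receptor that binds ligand, was at 3.24 and 2.62 CPM in H2O, 1.99 and 1.93 CPM at 10 µM and 1.86 and 1.82 CPM at 50 µM. All 4 treated libraries were below both H2O libraries, and the 2 doses lay close together. The log2 fold change was -0.58 ± 0.16 at 10 µM (edgeR adjusted p = 0.0037) and -0.67 ± 0.17 at 50 µM (adjusted p = 0.00025), with no call between the doses (-0.09 ± 0.19). At 10 µM the call was lost by DESeq2 (adjusted p = 0.15) and without H2O replicate 1 (log2 fold change -0.42, adjusted p = 0.15). TGFBR1, the signalling receptor kinase, was at 51.7 and 54.8 CPM in H2O, 57.5 and 57.9 CPM at 10 µM and 53.5 and 53.3 CPM at 50 µM. It was slightly higher at 10 µM alone, by 0.11 ± 0.035 on the log2 scale (edgeR adjusted p = 0.0097), a call lost by DESeq2 (adjusted p = 0.19), without H2O replicate 1 (log2 fold change 0.073, adjusted p = 0.28) and without 10 µM replicate 2 (adjusted p = 0.096). At 50 µM its log2 fold change was 0.0038 ± 0.037. Its fall from 10 to 50 µM (-0.11 ± 0.037, edgeR adjusted p = 0.0067) was lost by DESeq2 (adjusted p = 0.095) and without 10 µM replicate 2 (adjusted p = 0.05).

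Of the SMADs, SMAD7 was higher at the higher dose. SMAD7 was at 7.54 and 7.29 CPM in H2O, 7.32 and 8.23 CPM at 10 µM and 10.4 and 9.77 CPM at 50 µM. The 10 µM libraries overlapped H2O, while both 50 µM libraries were above them. Its log2 fold change was 0.07 ± 0.090 at 10 µM (not called) and 0.44 ± 0.087 at 50 µM (edgeR adjusted p = 3.4e-06). SMAD3, the receptor-activated SMAD of the TGF-beta branch, was at 37.3 and 38.2 CPM at 50 µM against 39.8 and 40.0 CPM in H2O and did not pass the test (log2 fold change -0.08 ± 0.042, edgeR adjusted p = 0.088). Against 10 µM the 50 µM libraries were lower by -0.12 ± 0.042 on the log2 scale (edgeR adjusted p = 0.015), a call lost by DESeq2 (adjusted p = 0.14), without 10 µM replicate 2 (log2 fold change -0.08, adjusted p = 0.22) and without 50 µM replicate 1 (adjusted p = 0.095).

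ID1, ID2 and ID3 rose together at 50 µM. ID2 was at 39.9 CPM in both H2O libraries, 48.0 and 46.3 CPM at 10 µM and 83.4 and 82.2 CPM at 50 µM. The groups did not overlap, and replicates lay within a few percent of each other. Its log2 fold change was 0.24 ± 0.039 at 10 µM (edgeR adjusted p = 2.3e-07) and 1.05 ± 0.035 at 50 µM (adjusted p = 5.0e-66). ID3 was at 39.8 and 38.7 CPM in H2O, 49.0 and 46.1 CPM at 10 µM and 64.9 and 64.0 CPM at 50 µM. Again the 3 groups were separate, with log2 fold changes of 0.27 ± 0.039 at 10 µM (edgeR adjusted p = 4.3e-09) and 0.72 ± 0.038 at 50 µM (adjusted p = 1.0e-41). ID1 was at 11.5 and 11.3 CPM in H2O, 12.3 and 13.0 CPM at 10 µM and 20.3 and 21.3 CPM at 50 µM. Both 10 µM libraries were above H2O, but the difference did not pass the test (0.15 ± 0.072, edgeR adjusted p = 0.13). At 50 µM its log2 fold change was 0.87 ± 0.065 (edgeR adjusted p = 7.5e-27). All 3 genes were also higher at 50 µM than at 10 µM, by 0.72 ± 0.064 for ID1, 0.81 ± 0.035 for ID2 and 0.44 ± 0.037 for ID3 on the log2 scale. Between the doses 7 of the 10 genes were called, 5 higher and 2 lower, against 52.8% of all genes (26.2% higher, 26.5% lower).

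**Figure D2:**
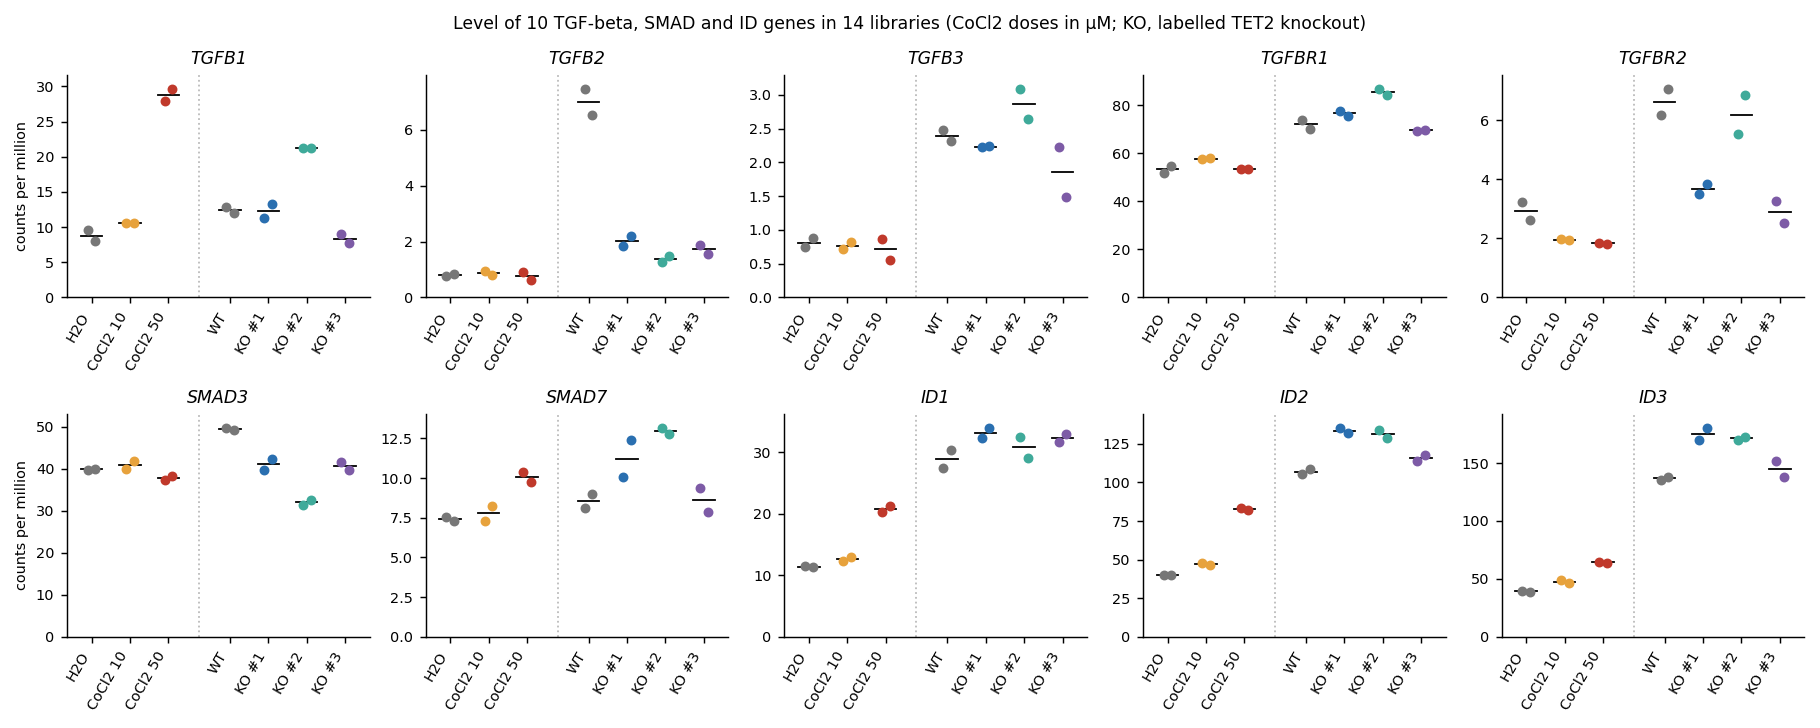
CPM of each gene in each library (points), with the group mean as a bar. Left of the dotted line is batch 1 (H2O and CoCl2 at 10 and 50 µM) and right of it batch 2 (WT and the labelled knockouts). TGFB1 at 50 µM (27.9 and 29.6 CPM) and TGFB2 in WT (7.46 and 6.55 CPM) stand clear of the other groups of their batch.

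Promoter sequences are shown for ID1 and TGFB1, which were higher at 50 µM, and for TGFB2, which was not called. Each is the 250 bases before the RefSeq start site, from RefSeq on GRCh38.p14. The windows are ID1, plus strand, chr20:31605039-31605288, TGFB1, minus strand, chr19:41353923-41354172, and TGFB2, plus strand, chr1:218345086-218345335. Capitals mark ACGTG or GCGTG, the core read by hypoxia-inducible factors, on either strand.
ID1: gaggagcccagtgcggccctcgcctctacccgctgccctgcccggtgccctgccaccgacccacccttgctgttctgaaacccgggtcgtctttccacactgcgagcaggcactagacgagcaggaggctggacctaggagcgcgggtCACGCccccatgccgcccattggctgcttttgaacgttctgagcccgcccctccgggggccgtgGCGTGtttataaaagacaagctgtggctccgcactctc
TGFB1: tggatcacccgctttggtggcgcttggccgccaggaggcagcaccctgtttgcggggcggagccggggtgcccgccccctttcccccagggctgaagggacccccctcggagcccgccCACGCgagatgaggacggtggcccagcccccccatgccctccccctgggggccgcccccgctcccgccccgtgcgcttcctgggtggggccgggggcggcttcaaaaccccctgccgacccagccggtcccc
TGFB2: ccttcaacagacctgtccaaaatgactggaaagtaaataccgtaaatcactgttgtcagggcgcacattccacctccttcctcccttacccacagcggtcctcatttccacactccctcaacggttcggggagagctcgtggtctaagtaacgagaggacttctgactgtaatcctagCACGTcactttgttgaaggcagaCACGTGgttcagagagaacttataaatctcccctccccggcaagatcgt
ID1 holds 2 such matches and TGFB1 holds 1. TGFB2 holds 3, of which 2 overlap in the palindrome CACGTG. The windows of ID2 and ID3, not printed here, hold 3 and 2. At least 1 match is found in 43.2% of the 35116 RefSeq windows of this length. GGCGCC, a core used by BMP-activated SMADs, occurs in none of the 5 windows and in 16.4% of all. CAGAC, a core used by SMAD3, occurs once in ID3, 2 times in TGFB2 and in none of the other windows, against 38.0% of all. A match describes letters in a window and says nothing of binding.

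Of 94 other pathway genes listed by role, 74 were tested in batch 1, and 54 (73.0%, beside 61.4% of all genes) were called at 50 µM, 30 higher and 24 lower, with a median log2 fold change of 0.05. At 10 µM 19 were called (25.7%, beside 22.7% of all genes), 10 higher and 9 lower. The share at 10 µM was near that of all genes, and the share at 50 µM was above it. By role the share called at 50 µM ran from 60% (ligands, and receptors and coreceptors) to 100% (bHLH partners). Of 14 target genes tested, 8 were higher and 2 lower at 50 µM, beside 30.4% higher and 31.1% lower of all genes. ATOH8, a bHLH gene induced by BMP signalling, was at 0.485 and 0.479 CPM in H2O and 2.05 and 2.18 CPM at 50 µM, a log2 fold change of 2.13 ± 0.25 (edgeR adjusted p = 7.8e-14). CDKN1A, which encodes the cell cycle inhibitor p21, rose by 0.46 at 10 µM and 1.19 ± 0.051 at 50 µM on the log2 scale (edgeR adjusted p = 3.2e-52 at 50 µM). ID4, the remaining ID gene, went the other way, with log2 fold changes of -0.28 at 10 µM and -0.92 ± 0.12 at 50 µM (edgeR adjusted p = 5.6e-12 at 50 µM). The 10 µM call for ID4 was lost by DESeq2 (adjusted p = 0.36), without the filter (adjusted p = 0.055), without H2O replicate 1 (log2 fold change -0.19, adjusted p = 0.33) and without 10 µM replicate 1 (-0.20, adjusted p = 0.28).

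Extracellular antagonists, which trap BMP or TGF-beta ligands, had 5 higher and 0 lower of 7 tested at 50 µM. The share called was 71.4%, beside 61.4% of all genes (30.4% higher, 31.1% lower). One of them, GREM1, rose by 0.29 ± 0.027 at 10 µM on the log2 scale (edgeR adjusted p = 5.0e-18). Its level was 95.1 and 92.6 CPM in H2O, 117 and 113 CPM at 10 µM and 179 and 174 CPM at 50 µM, with no overlap between groups. BMPER, a secreted BMP-binding protein, was higher at 50 than at 10 µM by 1.14 ± 0.27 (edgeR adjusted p = 0.00012). The bHLH partners of the ID proteins, which include the E proteins TCF3, TCF4 and TCF12, had 2 higher and 6 lower of 8 at 50 µM against H2O. Those 3 E proteins had log2 fold changes of -0.08, -0.22 and -0.29 at 50 µM and were all called lower. NEUROD1, a proneural bHLH factor, was lower at 50 than at 10 µM by -0.67 ± 0.12 (edgeR adjusted p = 3.5e-07). NEUROD1 shares 236 exon bases with CERKL on the same strand.

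Ligands had 1 higher and 5 lower of 10 tested at 50 µM, and BMP2 was among the lower. The share of ligands called was 60%, beside 61.4% of all genes (30.4% higher, 31.1% lower). BMP2 had 50 and 53 counts in H2O and 19 and 28 at 50 µM. Its log2 fold change of -0.89 ± 0.26 (edgeR adjusted p = 0.0019) lost its call by DESeq2 (adjusted p = 0.056). Genes of latency and activation, which store and release TGF-beta, had 2 higher and 6 lower of 9 (88.9% called). LTBP1, a latent TGF-beta binding protein, fell at 10 µM (-0.29 ± 0.070, edgeR adjusted p = 0.00073), a call lost by DESeq2 and without 10 µM replicate 2 (adjusted p = 0.084 in both). LRRC32, a surface anchor for latent TGF-beta, had 22 and 28 counts in H2O, 11 and 7 at 10 µM and 14 and 7 at 50 µM. Its log2 fold changes were -1.37 ± 0.40 and -1.01 ± 0.39 (edgeR adjusted p = 0.0061 and 0.018), and DESeq2 gave an adjusted p of 0.19 at 50 µM. Its call at 10 µM was lost without H2O replicate 2 (-1.20, adjusted p = 0.098) and 10 µM replicate 2 (-1.01, adjusted p = 0.17), and that at 50 µM without H2O replicate 2 (-0.84, adjusted p = 0.15) and 50 µM replicate 2 (-0.50, adjusted p = 0.39). TGIF2, a SMAD corepressor that shares 308 exon bases with the readthrough gene TGIF2-RAB5IF, was lower at 50 than at 10 µM by -0.50 ± 0.035 (edgeR adjusted p = 1.5e-29).

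Marker genes of other cell types did not all stay level in these libraries. The 10 mesenchymal or fibroblast markers summed to 1371 to 1376 CPM in H2O and 1773 to 1797 CPM at 50 µM, mostly from VIM, and 3 of the 8 tested were higher and 3 lower. The 4 immune markers summed to 5.09 to 5.31 CPM in H2O and 18.8 to 19.1 CPM at 50 µM. That sum was almost entirely the lysosomal gene CD68. The pan-leukocyte marker PTPRC was at 0 in H2O and 10 µM and had 1 count in the 50 µM group. The 6 endothelial markers summed to 1.71 to 2.12 CPM in H2O, 1.11 to 1.54 CPM at 10 µM and 1.01 to 1.06 CPM at 50 µM, and 2 of the 3 tested were lower at 50 µM, CDH5 (log2 fold change -1.34, edgeR adjusted p = 0.0018) and TEK (-0.94, adjusted p = 0.022). The rest of that list was near the floor. KDR had 3 and 5 counts in H2O and 0 at 50 µM. PECAM1 had 1 and 2 against 0 and 4, and CLDN5 had 4 and 9 against 6 and 6. VWF was not called (-0.56, edgeR adjusted p = 0.38). The 4 Schwann or glial markers measured summed to 4.94 to 5.31 CPM in H2O and 3.25 to 3.49 CPM at 50 µM, with ERBB3 lower (-1.31, edgeR adjusted p = 2.6e-09) and S100B not called. Called markers on these lists went both ways at 50 µM. Besides CDH5, TEK and ERBB3, those lower, like TGFBR2, were COL3A1 (log2 fold change -0.75), LUM (-0.46) and TWIST1 (-0.43). Those higher were VIM (0.42), FN1 (0.35), DCN (0.62) and CD68 (1.86). The 4 epithelial markers summed to 2.02 to 2.72 CPM in H2O and 2.14 to 2.15 CPM at 50 µM. Of the 11 adrenergic markers tested, 6 were higher and 3 lower at 50 µM (81.8% called, beside 61.4% of all genes). The part of these differences in the results above was not tested.

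In the libraries labelled TET2 knockout, TGFB2 was lower in all 3 groups, at 0.196 to 0.288 of the WT level. SMAD3 was also lower in all 3, and ID2 was higher in all 3, though at the threshold in TET2KO #3. Calls were made for 7 of the 10 genes in TET2KO #1 (4 higher, 3 lower) against 17.5% of the 14061 genes tested (7.79% higher, 9.72% lower). In TET2KO #2 there were 7 calls (5 higher, 2 lower) against 26.3% (12.0% higher, 14.3% lower), and in TET2KO #3 there were 5 (1 higher, 4 lower) against 18.9% (8.9% higher, 9.96% lower). Over the mean of the 3 groups 6 were called, 3 in each direction, against 18.9% of all genes (7.54% higher, 11.4% lower). With 1 coefficient for all 6 labelled knockout libraries, so that the spread between knockouts counts as error, TGFB2 alone of these 6 was called. TGFBR2, SMAD3, SMAD7, ID2 and ID3 then had edgeR adjusted p values of 0.41, 0.14, 0.46, 0.12 and 0.22. Calls in the same direction in all 3 groups were rare: 1.43% of all genes were higher and 2.84% lower in each. The median log2 fold change of the 10 was 0.04, 0.25 and -0.17 in TET2KO #1, #2 and #3, beside -0.0013, 0.00070 and -0.00048 over all genes. The 3 labelled knockouts differed among themselves in 7 of the 10 genes, by a test of that difference that called 37.6% of all genes.

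TGFB2 was at 7.46 and 6.55 CPM in WT, 1.84 and 2.19 CPM in TET2KO #1, 1.26 and 1.48 CPM in TET2KO #2 and 1.88 and 1.56 CPM in TET2KO #3. All 6 labelled knockout libraries were well below both WT libraries. The log2 fold changes were -1.79 ± 0.18, -2.35 ± 0.20 and -2.01 ± 0.19 (edgeR adjusted p = 1.2e-17, 6.1e-24 and 3.2e-20), and the difference among the 3 did not pass the test (adjusted p = 0.2). The H2O libraries of batch 1, whose genotype is also labelled WT, had 0.766 and 0.832 CPM, below every labelled knockout. These values come from different batches, and the difference was not tested.

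TGFB1 differed in direction among the groups. It was at 12.8 and 12.0 CPM in WT, 11.3 and 13.3 CPM in TET2KO #1, 21.2 and 21.3 CPM in TET2KO #2 and 8.99 and 7.72 CPM in TET2KO #3. TET2KO #2 was above WT, TET2KO #3 was below, and TET2KO #1 overlapped WT. The log2 fold changes were -0.0075 ± 0.10, 0.78 ± 0.091 and -0.56 ± 0.11 (edgeR adjusted p = 0.97, 1.0e-13 and 2.4e-05), with an adjusted p of 1.5e-28 for the difference among them. HNRNPUL1, on the opposite strand, had 0.12 in TET2KO #2 (edgeR adjusted p = 0.0027). TGFB3 was at 2.47 and 2.32 CPM in WT and 1.48 to 3.09 CPM across the labelled knockouts, with no call in any group.

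TGFBR2 was lower in 2 of the 3 labelled knockouts. Its levels were 6.19 and 7.06 CPM in WT, 3.50 and 3.85 CPM in TET2KO #1, 5.53 and 6.87 CPM in TET2KO #2 and 3.28 and 2.52 CPM in TET2KO #3. TET2KO #1 and #3 lay below WT and TET2KO #2 overlapped it, with log2 fold changes of -0.85 ± 0.16, -0.10 ± 0.14 and -1.18 ± 0.17 (edgeR adjusted p = 5.4e-06, 0.66 and 9.5e-10). The groups differed among themselves (adjusted p = 1.8e-08). TGFBR1 was at 73.8 and 70.3 CPM in WT and 86.7 and 84.1 CPM in TET2KO #2, where it was higher by 0.25 ± 0.049 on the log2 scale (edgeR adjusted p = 1.3e-05). It was not called in TET2KO #1 or #3, whose libraries lay between 69.3 and 77.8 CPM.

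SMAD3 was at 49.6 and 49.2 CPM in WT, 39.8 and 42.3 CPM in TET2KO #1, 31.4 and 32.7 CPM in TET2KO #2 and 41.6 and 39.7 CPM in TET2KO #3. Every labelled knockout library was below WT, and TET2KO #2 was lowest. The log2 fold changes were -0.27 ± 0.060, -0.63 ± 0.062 and -0.28 ± 0.060 (edgeR adjusted p = 0.00023, 5.1e-18 and 8.3e-05). SMAD7 was at 8.11 and 8.99 CPM in WT, 10.0 and 12.4 CPM in TET2KO #1, 13.1 and 12.8 CPM in TET2KO #2 and 9.40 and 7.88 CPM in TET2KO #3. TET2KO #1 and #2 were above WT and TET2KO #3 overlapped it. The log2 fold changes were 0.39 ± 0.11, 0.60 ± 0.11 and 0.02 ± 0.12 (edgeR adjusted p = 0.0069, 2.7e-06 and 0.93). The call in TET2KO #1 was lost without WT replicate 1 (log2 fold change 0.33, adjusted p = 0.12) and without TET2KO #1 replicate 2 (0.23, adjusted p = 0.36).

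The ID genes were modestly higher, most clearly in TET2KO #1 and #2. ID2 was at 105 and 109 CPM in WT, 135 and 132 CPM in TET2KO #1, 134 and 129 CPM in TET2KO #2 and 114 and 118 CPM in TET2KO #3. No labelled knockout library overlapped WT, and the log2 fold changes were 0.32 ± 0.043, 0.30 ± 0.043 and 0.11 ± 0.043 (edgeR adjusted p = 1.2e-10, 1.3e-09 and 0.049). The call in TET2KO #3 was lost without any filter (adjusted p = 0.057), and without WT replicate 1, WT replicate 2, TET2KO #1 replicate 2 or any 1 library of TET2KO #2 or #3 (log2 fold change 0.091 to 0.14, adjusted p 0.052 to 0.29). ID3 was at 135 and 138 CPM in WT, 170 and 180 CPM in TET2KO #1, 170 and 173 CPM in TET2KO #2 and 152 and 138 CPM in TET2KO #3. TET2KO #3 overlapped WT and the other two were above it, with log2 fold changes of 0.36 ± 0.040, 0.33 ± 0.040 and 0.09 ± 0.041 (edgeR adjusted p = 2.9e-14, 1.4e-12 and 0.13). Without TET2KO #3 replicate 2 the last of these was called (0.15, adjusted p = 0.011).

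ID1 was at 27.5 and 30.4 CPM in WT and 29.1 to 33.9 CPM across the labelled knockouts. TET2KO #1 and #3 lay above WT and TET2KO #2 overlapped it. It was called in TET2KO #1 alone, with a log2 fold change of 0.19 ± 0.069 (edgeR adjusted p = 0.04). That call was lost by DESeq2 (adjusted p = 0.083), without WT replicate 1 (0.12, adjusted p = 0.4) and without either TET2KO #1 library (adjusted p = 0.055 and 0.29). The groups did not differ among themselves in ID1 by the test of that difference (adjusted p = 0.44).

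**Figure D3:**
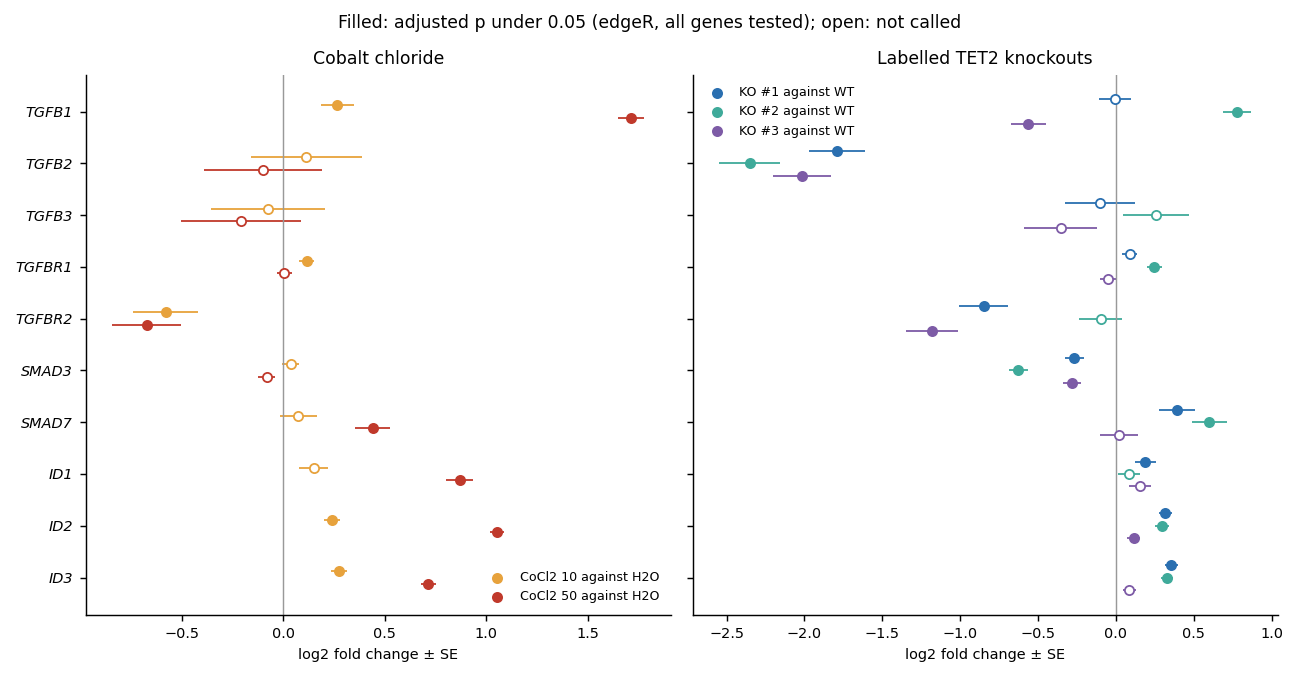
Log2 fold change ± SE of each gene against H2O at 10 and 50 µM CoCl2 (left) and against WT in the 3 labelled knockouts (right), filled where the adjusted p is under 0.05. TGFB2 lies between -1.79 and -2.35 in the labelled knockouts and near 0 under CoCl2, while TGFB1 reaches 1.71 at 50 µM.

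Of the 94 other pathway genes 82 were tested in batch 2. Calls numbered 31 in TET2KO #1 (11 higher, 20 lower), 40 in TET2KO #2 (18 higher, 22 lower) and 34 in TET2KO #3 (8 higher, 26 lower), or 37.8%, 48.8% and 41.5% beside 17.5%, 26.3% and 18.9% of all genes. Those called lower in all 3 groups numbered 10 of the 82, beside 2.84% of all genes. Among them were the matrix and contractile target genes FN1, CCN2, TAGLN, ACTA2 and COL1A1, the latency genes LTBP1, LRRC32 and THBS1, and the coreceptor gene ENG. Those called higher in all 3 were DCN and SMAD9, 2 of the 82, beside 1.43% of all genes. Target genes had 8 of 17 lower in TET2KO #1, 8 in TET2KO #2 and 10 in TET2KO #3, with 2, 4 and 2 higher. Of all genes 9.72%, 14.3% and 9.96% were lower and 7.79%, 12% and 8.9% higher.

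FN1, which encodes the matrix protein fibronectin, was at 325 and 306 CPM in WT, 57.7 and 57.5 CPM in TET2KO #1, 132 and 137 CPM in TET2KO #2 and 54.3 and 54.8 CPM in TET2KO #3. All labelled knockout libraries were below WT, and TET2KO #2 lay in between. The H2O libraries of batch 1, whose genotype is also labelled WT, had 7.69 and 8.45 CPM of FN1, below every labelled knockout. That difference between batches was not tested. CCN2, a matricellular growth factor, fell by 2.91, 1.35 and 3.09 on the log2 scale (edgeR adjusted p = 2.5e-29 in TET2KO #1 and 1.0e-30 in TET2KO #3), from 6.89 and 7.76 CPM in WT to 0.741 to 3.07 CPM. THBS1, which encodes thrombospondin and can activate latent TGF-beta, had log2 fold changes of -2.37, -1.57 ± 0.053 and -2.53. LRRC32 had -2.35, -1.50 ± 0.14 and -2.72 ± 0.18, and LTBP1 had -0.92, -0.39 and -0.79. The actin gene ACTA2 had -1.77, -1.06 and -2.16, the actin-binding gene TAGLN -2.61 ± 0.20, -1.64 ± 0.17 and -1.89, the collagen gene COL1A1 -0.47, -0.65 and -1.11, and ENG, which encodes endoglin, -0.46, -0.51 and -0.68. TAGLN shares 2233 of 6550 exon bases with PCSK7, THBS1 shares 448 of 9158 with FSIP1 and ACTA2 shares 380 of 2976 with FAS, each on the opposite strand. The log2 fold changes in the 3 groups were -0.23, 0.021 and 0.0038 for PCSK7, -0.10, -0.96 and 0.28 for FSIP1 and -0.51, -0.07 and -1.17 for FAS.

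DCN, which encodes decorin, a matrix proteoglycan that binds TGF-beta, was at 21.5 CPM in both WT libraries and 36.3 to 47.8 CPM in the labelled knockouts. Its log2 fold changes were 1.04 ± 0.069, 1.15 ± 0.068 and 0.77 ± 0.071 (edgeR adjusted p = 1.4e-33, 1.1e-39 and 2.8e-20). SMAD9, of the BMP branch, rose by 0.23, 0.32 and 0.12 on the log2 scale. BMP2 was at 1.09 and 1.28 CPM in WT and 1.45 to 2.85 CPM in the labelled knockouts, and it was called in TET2KO #1 (1.24 ± 0.25, edgeR adjusted p = 3.2e-05) and TET2KO #3 (0.81 ± 0.27, adjusted p = 0.021). The TET2KO #3 call was lost without WT replicate 1 (0.70, adjusted p = 0.17) or either TET2KO #3 library (adjusted p = 0.091 and 0.079). MSX2, a homeobox target of BMP, rose in TET2KO #1 (0.66 ± 0.13, edgeR adjusted p = 2.7e-05) and TET2KO #2 (0.66, adjusted p = 1.7e-05). In TET2KO #2 the calls for MSX1 (1.26 ± 0.43, edgeR adjusted p = 0.02) and BMP4 (1.15 ± 0.36, adjusted p = 0.0097) were lost by DESeq2 (adjusted p = 0.085 and 0.075). The MSX1 call was also lost without WT replicate 2 (1.05, adjusted p = 0.17) and TET2KO #2 replicate 1 (1.04, adjusted p = 0.2), and the BMP4 call without either WT library or TET2KO #2 replicate 2 (adjusted p 0.058 to 0.069). In TET2KO #3 INHBA, an activin subunit, had 0.59 ± 0.19 (edgeR adjusted p = 0.014), also lost by DESeq2 (adjusted p = 0.079) and without either WT library or TET2KO #3 replicate 1 (adjusted p 0.067 to 0.13). Over the mean of the 3 groups GREM1 was higher by 0.59 ± 0.17 (edgeR adjusted p = 0.004), a call lost without WT replicate 2 (0.43, adjusted p = 0.19) and with 1 coefficient for all 6 labelled knockout libraries (0.64, adjusted p = 0.36). Its level was 2.18 to 5.31 CPM in batch 2 against the 92.6 to 179 CPM of batch 1.

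**Figure D4:**
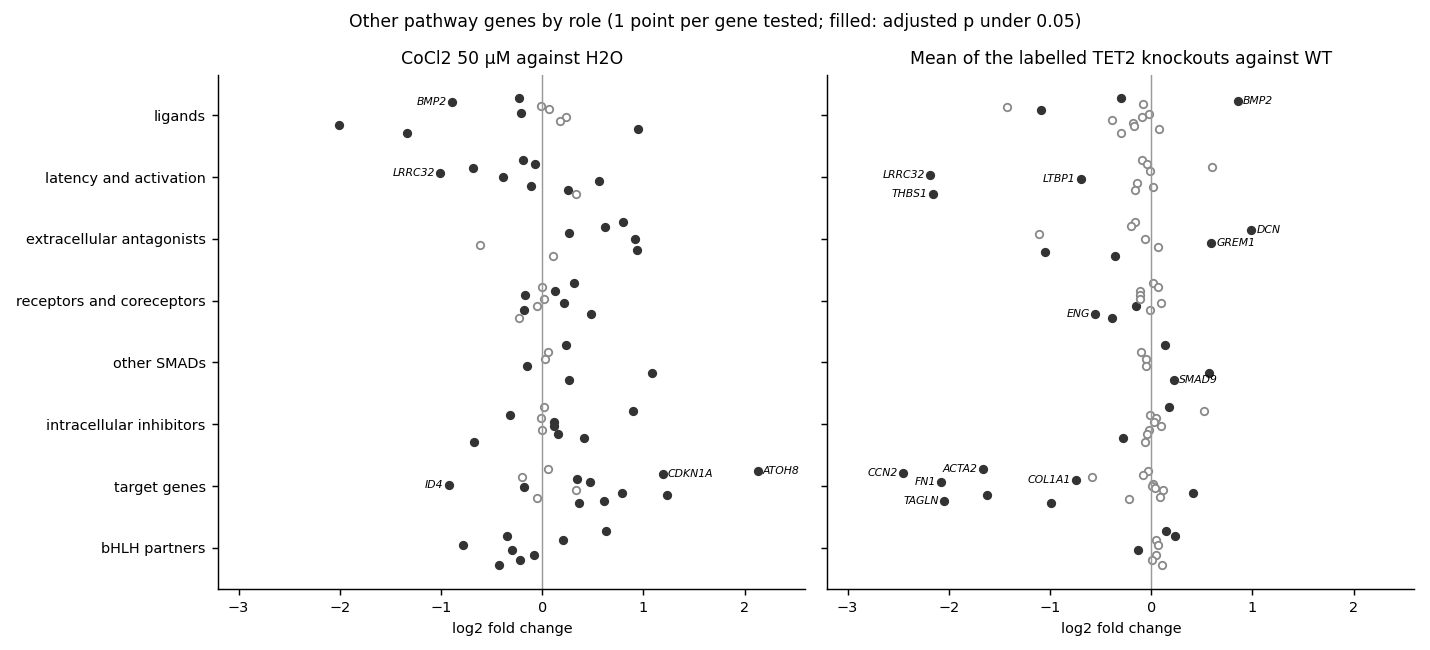
Log2 fold change of the other pathway genes tested, 1 point a gene and 1 row a role, at 50 µM CoCl2 against H2O (74 genes) and for the mean of the labelled knockouts against WT (82 genes), filled where the adjusted p is under 0.05. Target genes include CCN2 and FN1 far to the left in the labelled knockouts, and ATOH8 at 2.13 to the right under CoCl2.

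Of the markers of other cell types, the mesenchymal, endothelial and glial sums were lower in all 3 labelled knockouts than in WT. The 10 mesenchymal or fibroblast markers, of which FN1, COL1A1 and DCN are also on the pathway list, summed to 1511 to 1527 CPM in WT, 1138 to 1172 in TET2KO #1, 1192 to 1213 in TET2KO #2 and 1032 to 1052 in TET2KO #3. Of the 9 tested, 4, 6 and 4 were lower and 3, 1 and 3 higher, and COL1A2 was at 0 in WT. FN1 alone went from a mean of 316 CPM in WT to 57.7, 134 and 54.5 CPM. COL3A1 and POSTN, which are not on the pathway list, were also called lower in all 3. COL3A1 went from a mean of 155 CPM in WT to 14.8, 27.5 and 12.9 CPM. POSTN went from 39.3 CPM to 5.00, 4.92 and 4.40 CPM. Through FN1 and COL1A1 the mesenchymal sum is not separate from the falls of the target genes. The 6 endothelial markers summed to 11.8 to 12.2 CPM in WT, 1.69 to 2.07 in TET2KO #1, 3.96 to 4.99 in TET2KO #2 and 2.53 to 3.31 in TET2KO #3, with 4, 3 and 4 of 6 called lower. In the H2O group of batch 1 the endothelial sum was 1.71 to 2.12 CPM. The 4 Schwann or glial markers measured summed to 11.1 to 11.9 CPM in WT, 7.72 to 8.18 in TET2KO #1, 5.02 to 5.92 in TET2KO #2 and 7.21 to 8.01 in TET2KO #3. One of them, ERBB3, was called lower in all 3 groups (log2 fold changes of -0.72, -1.64 and -0.68). The 4 immune markers, almost entirely CD68, summed to 10.5 to 11.8 CPM in WT. They summed to 9.13 to 9.83 in TET2KO #1, 14.1 to 15.6 in TET2KO #2 and 7.09 to 8.36 in TET2KO #3. The 4 epithelial markers summed to 0.927 to 1.36 CPM in WT, 1.22 to 1.29 in TET2KO #1, 1.45 to 1.88 in TET2KO #2 and 1.36 to 1.62 in TET2KO #3. Fewer cells of a type and less RNA per cell cannot be told apart in these bulk libraries, and the part of these markers in the falls of TGFB2, TGFBR2 and the target genes was not tested. The adrenergic markers summed to 5011 to 5153 CPM in WT and 4705 to 5025 CPM in the labelled knockouts. Of the 11 tested, 6, 3 and 5 were higher and 2, 4 and 4 lower. The shares called were 72.7%, 63.6% and 81.8%, beside 17.5%, 26.3% and 18.9% of all genes. All 11 differed among the labelled knockouts, beside 37.6% of all genes.

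The genes whose pattern was most like that of each ID gene were ranked by Pearson's correlation of log2(CPM + 1) over the 14 libraries, after each batch's mean was removed, among 13373 genes tested in both batches. For ID1 they were CDT1 (r = 0.97), which licenses DNA replication, AP2M1 (0.97), an endocytic adaptor subunit, and FTL (0.96), a ferritin chain. For ID2 they were DTL (0.99) and CDC6 (0.98), both of DNA replication control, and MAP1LC3B (0.98), an autophagy gene. For ID3 they were CRH (0.97), a neuropeptide, ASTN2 (0.97) and UNC5B (0.96), a netrin receptor. Among the 10 genes themselves, ID2 had r = 0.95 with ID1 and 0.95 with ID3, 0.84 with TGFB1 and -0.28 with TGFB2. Libraries of a group share their treatment or label, so the 14 points are not independent. At 50 µM against H2O the log2 fold change was 0.69 for CDT1, 0.49 for DTL and 2.09 for CRH. In TET2KO #1, #2 and #3 it was 0.22, 0.085 and 0.23 for CDT1 and 0.16, 0.14 and 0.049 for DTL. For CRH it was 0.74, 0.48 and 0.066. TGFB1 had -0.0075, 0.78 and -0.56 in these groups, where ID2 had 0.32, 0.30 and 0.11, so a high r over both batches need not hold within batch 2.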

How the data were processed

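The authors deposited unnormalised counts for each gene symbol, made with featureCounts (1.5.3 for batch 1, 2.0.5 for batch 2) over protein-coding exons of GENCODE 33 on GRCh38, with the paired-end option and no strand option, per the file headers. The submitters' processing notes also name Trimmomatic 0.36 and STAR 2.6.1d. The later featureCounts counts reads unless told otherwise: among low counts, 77.3% to 80.5% were even in batch 2 and 39.0% to 42.3% in batch 1. Libraries were strand-specific and oligo-dT based, per the labels' protocols.

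Each batch was fitted alone in edgeR 4.0.16 (R 4.3.3; filterByExpr by group, TMM, 1 coefficient a group, robust quasi-likelihood, common dispersion of at least 0.00011), with Benjamini-Hochberg adjustment over 13636 and 14061 genes and a threshold of 0.05. SEs are the absolute log2 fold change over the square root of F. Knockouts were compared with an F test over their 3 groups. The fit was tested on simulated data. CPM are counts over the TMM-scaled library size. Alternatives were DESeq2 1.42.0, other scaling, filters and designs, and each library left out. The 10 genes, the gene lists and the tests were chosen with earlier results of these data known. Named besides the 10 were, per comparison, the 3 largest called rises and falls among pathway genes with at least 50 counts, genes called alike in all 3 knockouts, and the 3 genes most like each ID gene. Some genes that this rule names are not reported here. The E proteins were named after their values were seen. All 10 symbols matched the RefSeq promoter table.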

Additional observations from a re-analysis of the deposited data

Results flagged for a closer look

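The 3 labelled knockouts were compared with WT under the same contrast, and the difference between their responses was tested itself, with edgeR's F test over the 3 groups and adjustment over all genes tested. Of 27 genes examined, the 10 and those named for a knockout comparison, 24 differed among the knockouts at an adjusted p under 0.05. Over all genes of the batch 37.6% did. The genes besides the 10 were named for their differences from WT in these same data. The count of 24 therefore cannot be compared with that share. The values below are the gap between the highest and the lowest of the 3 log2 fold changes.

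The gap was 1.34 for TGFB1, which was higher in TET2KO #2 and lower in TET2KO #3, and 1.08 for TGFBR2, which was lower in TET2KO #1 and #3. It was 0.58 for SMAD7, 0.36 for SMAD3, 0.30 for TGFBR1, 0.27 for ID3 and 0.20 for ID2. TGFB2, with a gap of 0.56, TGFB3 and ID1 did not pass this test.

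Among the other pathway genes the widest gap was 2.03 for BMP4, with log2 fold changes of -0.88, 1.15 and -0.52. Genes called lower in all 3 groups also differed in degree: the gap was 1.74 for CCN2, 1.30 for FN1, 1.21 for LRRC32, 1.10 for ACTA2, 0.98 for TAGLN, 0.96 for THBS1, 0.63 for COL1A1, 0.53 for LTBP1 and 0.22 for ENG. In 7 of these 9 genes TET2KO #2 had the smallest fall. In COL1A1 and ENG, TET2KO #1 had the smallest. Those higher in all 3 had gaps of 0.38 (DCN) and 0.20 (SMAD9). The remaining gaps were 1.73 for MSX1, 1.62 for INHBA, 0.78 for GREM1 and 0.73 for both MSX2 and BMP2. BMP2 was highest in TET2KO #1, and MSX1 and GREM1 in TET2KO #2.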

How the results depend on the processing

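Most calls kept their direction and side of the threshold. The 10 µM comparison and small differences near 0 were the least stable. By DESeq2 the 10 µM calls fell to 1121 of all genes, 2 of the 10 and 11 of the other pathway genes, and with all 14 libraries in one fit to 796, 2 and 8. In that fit 4678 genes differed between the doses, and TGFB1 in TET2KO #1 had a log2 fold change of 0.00033. With 1 coefficient for all 6 labelled knockout libraries the calls against WT fell to 256, 1 and 7, since the spread between the knockouts then counts as error. TGFBR1 at 50 µM was -0.0052 without the low-count filter.

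With each library left out in turn, calls over all genes ranged from 1858 to 3292 at 10 µM, 1375 to 2586 in TET2KO #1, 2406 to 3766 in TET2KO #2, 1566 to 2615 in TET2KO #3 and 1587 to 2703 for the knockout mean. At 10 µM 3 to 5 of the 10 were called. Signs turned for these uncalled log2 fold changes. At 10 µM the ranges were -0.0027 to 0.23 for TGFB2, -0.20 to 0.055 for TGFB3, -0.00069 to 0.068 for SMAD3 and -0.019 to 0.15 for SMAD7. At 50 µM they were -0.37 to 0.16 for TGFB2, -0.53 to 0.089 for TGFB3 and -0.039 to 0.044 for TGFBR1. Between doses they were -0.49 to 0.050 for TGFB2 and -0.46 to 0.16 for TGFB3. In batch 2 they were -0.13 to 0.10 for TGFB1 in TET2KO #1, -0.26 to 0.053 for TGFBR2 in TET2KO #2, -0.12 to 0.14 for SMAD7 in TET2KO #3 and -0.18 to 0.017 for TGFB3 over the knockout mean.

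Replicate numbers are shared between groups. Deviations of same-numbered libraries correlated at -0.18 to 0.14, so the numbers were not taken to pair them. With a replicate block 2 calls were lost, ID1 in TET2KO #1 (log2 fold change 0.19, adjusted p = 0.054) and ID2 in TET2KO #3 (0.11, adjusted p = 0.065), and counts over all genes were 2969 at 10 µM, 8303 at 50 µM, 2228, 3500 and 2458 in the 3 knockouts.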
